A study of Mus musculus and Homo sapiens
Mus musculus with 14 samples.

Results

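Human HEK cells and mouse 3T3 fibroblasts that grew side by side in the same wells were compared gene by gene, in 6 Light-Seq libraries from 3 wells. Protein-coding genes of the 2 species were joined by gene symbol without regard to case, names listed more than once in a species and mitochondrially encoded genes were dropped, and genes with 20 or more UMIs over the 6 libraries were kept. This left 6030 genes of the 16053 joined nuclear genes, out of 60605 human and 55359 mouse genes listed in the tables. The wells belong to a series of 14 samples, which also holds a deeper sequencing run of well 2 and libraries of mouse retina.

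In Light-Seq, RNA is reverse transcribed inside fixed, permeabilized cells, and a DNA barcode is then crosslinked by light onto the cDNA of the cells that the operator outlines under the microscope. The labels name the lines HEK293T and 3T3, and the study's methods describe the human cells as an HEK293 line that stably carries eGFP behind a CMV promoter and the mouse cells as NIH/3T3. The cells were chosen by eGFP and by shape, and no treatment was applied to either line. HEK293 cells come from human embryonic kidney cultures transformed with adenovirus DNA, and are known for a mixture of kidney progenitor, epithelial and neuronal transcripts. NIH/3T3 cells are an immortal line from mouse embryo, known for flattened, adherent growth and for secretion of collagen-rich matrix. Per the labels, the barcode that marked HEK cells was TATGGA and the barcode that marked 3T3 cells was GTTAGG, and these 6-base tags are what assigns a molecule to a line in the tables. The assignment is imperfect, since the study describes a minority of reads with the barcode of the other line. Species and line differ together in every library, so a difference of cell type and a difference of species cannot be told apart in any value below. The wells are technical replicates, so p-values measure the spread between wells. The test pooled that spread over genes, so a p-value does not measure the spread of its own gene.

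Wells 1, 2 and 3 gave 47698, 102551 and 88459 UMIs from HEK cells and 135565, 206187 and 199128 from 3T3 cells. The study describes similar numbers of barcoded cells of each line and a larger lit area for the 3T3 cells. The tables hold no cell numbers, so the number of cells and the RNA per cell cannot be told apart in these totals. The joined genes took 74.5 to 76.7% of HEK UMIs and 86.6 to 87.7% of 3T3 UMIs, and levels are given in UMIs per 1000000 joined UMIs (CPM) unless stated otherwise. Genes whose symbol differs between the species were not joined and have no value here, among them TUBB, SCD, ATP5F1B and ZNF703 of the human table.

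Of the fibroblast markers, 24 of 25 had a UMI in 3T3 cells, and together they took 5.12 to 6.36% of joined UMIs in the 3T3 wells against 0.0840 to 0.132% in the HEK wells. FAP had no UMI in any well, and DCN, LUM and S100A4, other fibroblast genes, had at most 2 UMIs in any 3T3 well. Of the HEK markers, 15 of 20 had a UMI in HEK cells, and together they took 0.234 to 0.268% of joined UMIs in the HEK wells against 0.00937 to 0.0155% in the 3T3 wells. Of the 8 that reached the filter 6 were higher in HEK and none in 3T3, with a median log2 difference of 7.08, or 4.61 with 5 genes at 0 in 3T3 set at their bound. Those 5 passed the filter through HEK alone, so their direction was fixed in advance. This holds for every gene below at 0 in 1 line. The keratins KRT8, KRT18 and KRT19 and the epithelial adhesion genes CDH1 and EPCAM had no UMI in any well of either line, and PAX2, a kidney progenitor factor, had 2 UMIs in all HEK wells together. Reads that match more than 1 place were discarded, so these counts of 0 do not show that the genes are silent. Among 27 joined markers of blood, liver, endothelium, muscle, epidermis, pigment, fat, cartilage, bone, neurons and glia, 17 had no UMI in any well. SOX9 and RUNX2, transcription factors of cartilage and bone, were the 2 that reached the filter, and both were higher in 3T3. SOX9 had 1, 4 and 1 UMIs in the HEK wells and 90, 165 and 95 in the 3T3 wells, and RUNX2 had 2, 0 and 1 against 35, 40 and 42.

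Levels of the 6030 genes were far more alike between wells of 1 line than between lines. The Spearman correlation across genes was 0.762 to 0.831 between HEK wells, 0.862 to 0.895 between 3T3 wells and 0.219 to 0.243 between a HEK and a 3T3 well. These correlations are descriptions across genes that share libraries, and the shallower HEK libraries carry more counting noise. The 3T3 libraries were more concentrated: their 10 most abundant joined genes took 8.20 to 9.82% of joined UMIs, against 3.68 to 3.74% in the HEK libraries.

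At a Benjamini-Hochberg adjusted p of 0.05, edgeR's quasi-likelihood test called 2990 of the 6030 genes different between the lines, or 49.6%. Of the 2990, 1676 genes were higher in HEK (27.8% of those tested) and 1314 were higher in 3T3 (21.8%). Without well 2 the test called 1896 genes, 958 of them higher in HEK, without well 3 it called 1964, with 1024 higher in HEK, and without the HEK library of well 2 alone 1108 were higher in HEK. DESeq2, which scaled by its own size factors, called 926 genes higher in HEK and 1220 higher in 3T3. The difference ran the same way in all 3 wells for 2862 of the 2990 called genes, or 95.7%. Without any model, 1793 genes had every HEK library above every 3T3 library (29.7%) and 1552 had the reverse (25.7%). With 3 wells against 3 no exact permutation test of a single gene can give a p below 0.1.

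**Figure D1:**
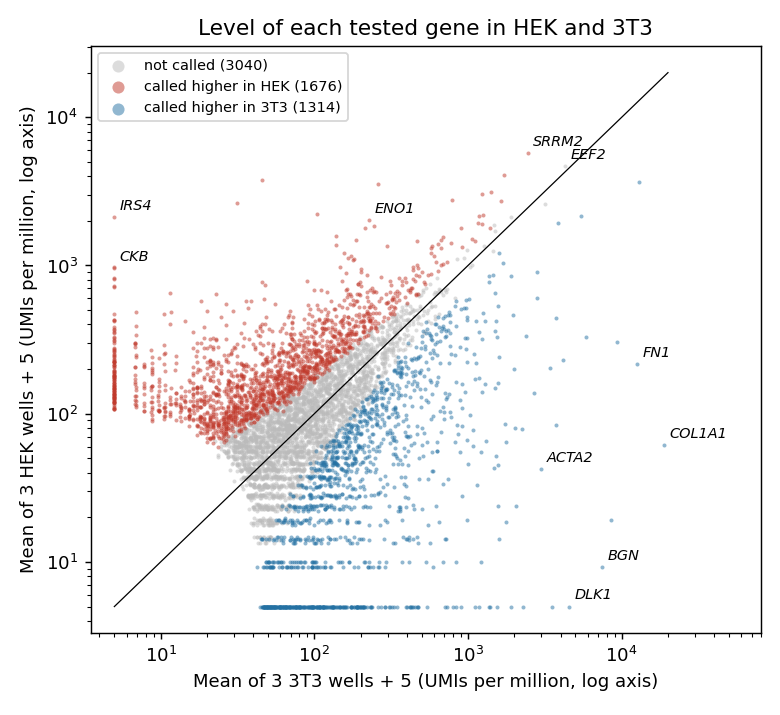
Mean level of each of the 6030 tested genes in 3T3 cells (x axis) and HEK cells (y axis), in CPM plus 5 on log axes, each point 1 gene and the line marking equal levels. Red points are the 1676 genes called higher in HEK, blue points the 1314 called higher in 3T3, and genes at 0 in a line lie along the left or lower edge.

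The split between directions depended on the scaling. TMM factors, set from a trimmed mean of log ratios over genes, moved the log2 difference (HEK minus 3T3) by -0.34 at the median. With them 1245 genes were higher in HEK (20.6%) and 1704 higher in 3T3 (28.3%). The share of calls that fell to HEK was 56.05% when scaled by total and 42.2% with TMM, while no gene changed from one called direction to the other. Dividing counts by the exon length of the gene in its own species gave 1746 genes higher in HEK (29.0%) and 1493 higher in 3T3 (24.8%), and doing so with TMM factors gave 1447 (24.0%) and 1746 (29.0%). Across all 4 fits, 1048 genes were called higher in HEK and 1128 higher in 3T3. The median log2 difference over all tested genes was 0.15 when scaled by total, 0.13 with the length offset, -0.19 with TMM and -0.11 with both, and the lists below are read against these values and against the shares above.

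Annotated exon length was longer in human for 61.4% of the tested genes, with a median of 6252 bases in human and 5404 in mouse. For 776 genes the human length was over 2 times the mouse length, and for 266 the mouse length was over 2 times the human length. The log2 difference followed this ratio weakly when scaled by total, with a median of 0.47 in genes far longer in human and -0.10 in genes far longer in mouse. With the offset the same medians were -0.86 and 1.48. Where a named call did not hold with the length offset, this is said beside it.

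**Figure D2:**
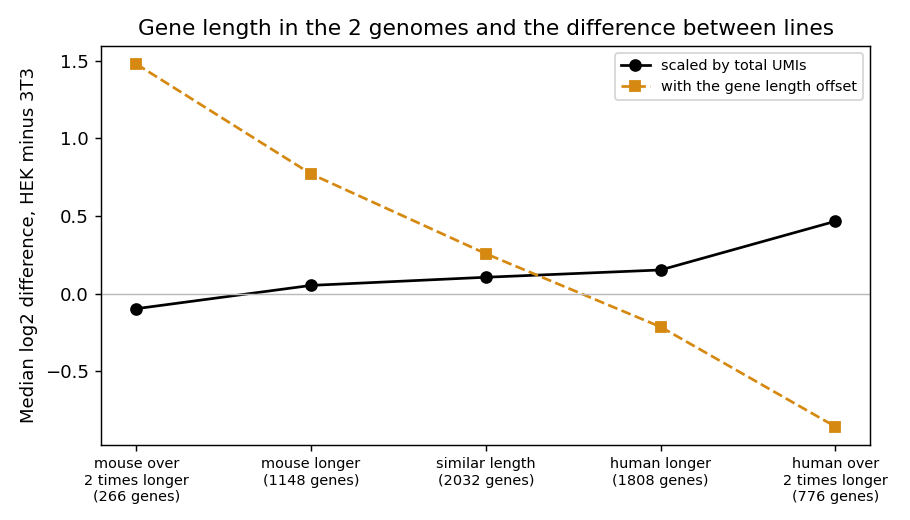
Median log2 difference between HEK and 3T3 cells (y axis) over 5 groups of genes ordered by the ratio of human to mouse exon length (x axis, with the number of genes), when scaled by total UMIs (black circles) and with the gene length offset (orange squares). The black medians run from -0.0976 to 0.466 and the orange medians from 1.48 to -0.858.

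The 10 genes with the largest fitted differences towards HEK that the naming rule picked had no UMI in any 3T3 well, so their order rests on their HEK counts and on the prior count. IRS4, an adaptor of insulin and IGF receptors, led them with 77, 152 and 153 UMIs in HEK wells 1, 2 and 3, a mean of 2119 ± 166.7 CPM (s.d., n = 3 wells), at least 331-fold above 3T3. A gene at 0 gets such a lower bound, computed against 3 UMIs over the 3 libraries of the line, because its fitted log2 difference depends on the prior count. CKB, the brain-type creatine kinase, followed with 28, 84 and 68 UMIs, at least 156-fold. Bounds from 112.6-fold to 139.5-fold were reached by FOXRED2, TAT, HOXB9, NUP210 and KIF1A. TAT encodes the tyrosine aminotransferase of liver, NUP210 a membrane glycoprotein of the nuclear pore and KIF1A an axonal transport motor. The other 3 genes that the naming rule picked were DPYSL5, of the collapsin response mediator family of growing neurons, KCTD12, an auxiliary subunit of GABA-B receptors, and ZIC2, a zinc finger factor of the early nervous system. They ranged from 64.1-fold to 72.8-fold. The naming rule required that the wells of the lines did not overlap.

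Towards 3T3, DLK1, a surface ligand of the Notch family that holds back fat cell differentiation, had the largest fitted difference, a rank that rests on the prior count. It had no UMI in any HEK well and 652, 743 and 707 in the 3T3 wells, at least 269.6-fold higher. FBLN2, LTBP2 and COL6A3, which are matrix proteins, AXL, a receptor tyrosine kinase that binds GAS6, IL1RL1, the receptor of interleukin-33, CD44, the hyaluronan receptor, and EMP1, a small membrane protein, also had no HEK UMI, with bounds from 71.4-fold for EMP1 to 212-fold for FBLN2. BGN, the matrix proteoglycan biglycan, had 0, 1 and 0 UMIs against 929, 1257 and 1311. Its ratio was 1345, with a 95% counting interval from 241.3 to 53150. RPS26, a ribosomal protein gene at 0 in HEK and at 137, 214 and 166 UMIs in 3T3, completes the 10 and is taken up again with other genes at or near 0 in 1 line. In the mouse genome (GRCm39), Dlk1 lies on chromosome 12 at 109418749 to 109429262, Axl on chromosome 7 at 25456535 to 25488329 and Bgn on chromosome X at 72527208 to 72539541.

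**Figure D3:**
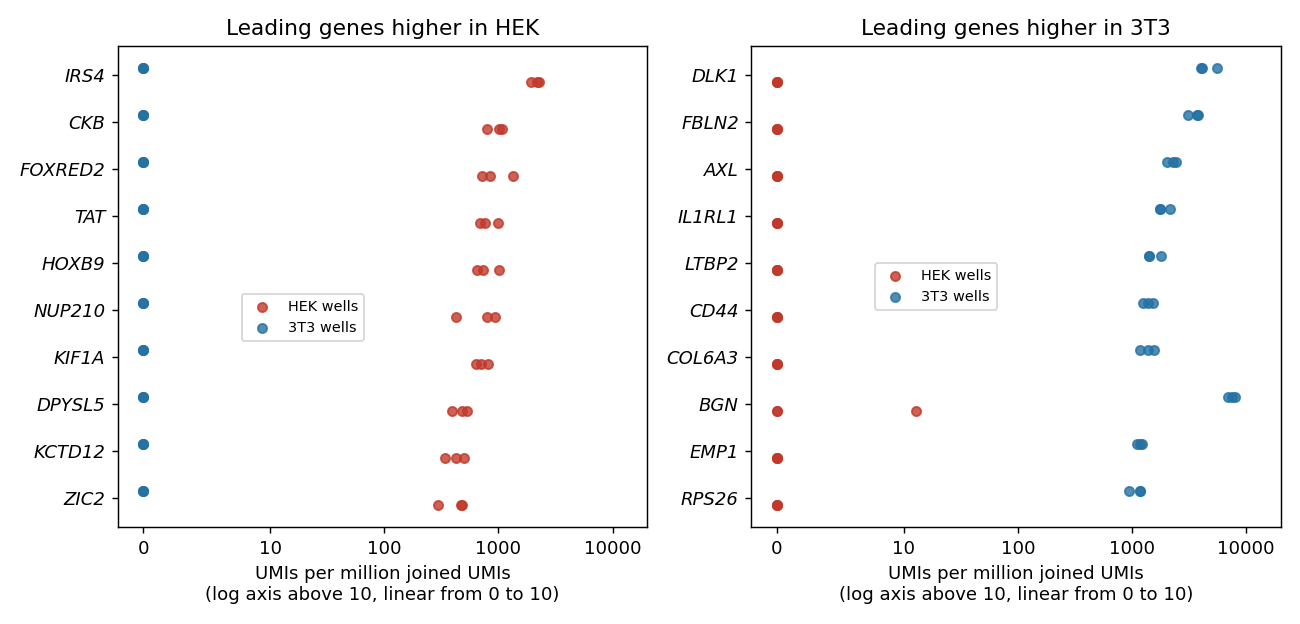
Level in each well (x axis, CPM, logarithmic above 10) of the 10 genes named for the largest fitted differences in each direction (y axis), with red points for HEK wells and blue points for 3T3 wells. All 3T3 wells are at 0 in the left panel, and BGN is the gene of the right panel with a HEK well above 0.

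By level, the most abundant joined genes of 3T3 cells were COL1A1, ACTB, FN1, LARS2, COL1A2 and BGN, and those of HEK cells were SRRM2, EEF2, PRPF8, ACTG1, ACTB and SPEN. LARS2, ACTB, ACTG1, SPEN and PRKDC here, and below GAPDH, EEF1A1 and a few further list members such as SERPINH1, MDM2, PSAT1 and TUFM, were chosen after their values were seen. COL1A1, a chain of type I collagen, had 3, 2 and 4 UMIs in HEK and 2607, 3008 and 3137 in 3T3, a log2 difference of -8.54 ± 0.24 (SE, adjusted p = 1.11e-266, edgeR). LARS2, the mitochondrial leucyl-tRNA synthetase, had 13, 19 and 20 UMIs in HEK and 1253, 1415 and 1621 in 3T3. PRKDC, the catalytic subunit of DNA-dependent protein kinase, had 98, 203 and 178 in HEK and 4, 1 and 7 in 3T3, a log2 difference of 6.64 ± 0.27. SPEN, a transcriptional corepressor, had 141, 215 and 265 against 26, 50 and 46. The cytoplasmic actins ran in opposite directions. ACTB had 123, 293 and 254 UMIs in HEK and 1422, 2228 and 2508 in 3T3, while ACTG1 had 148, 303 and 219 in HEK and 7, 4 and 7 in 3T3. Their coding sequences are nearly the same, and reads that match more than 1 place were discarded, so the division of reads between them is uncertain.

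Of 21 tested fibroblast markers, 20 were higher in 3T3, none was higher in HEK and TWIST2 did not pass the test, with a median log2 difference of -6.52, or -4.74 with 8 genes at 0 in HEK set at their bound. Those 8 genes passed the filter through 3T3 alone. Of 24 tested matrix remodelling genes, which include proteases, their inhibitors and crosslinking enzymes, 21 were higher in 3T3, and ADAMTS1 alone was called higher in HEK, with 4, 7 and 6 UMIs against 5, 7 and 5, a call lost in each of the other 3 fits. The median log2 difference was -5.71, or -4.82 with 7 genes at their bound. LOX, which crosslinks collagen and elastin, had 0, 1 and 3 UMIs against 272, 333 and 339, and TNC, MMP2, MMP14, THBS2, ADAM12 and LGALS3 had none in HEK.

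The machinery that folds and modifies secreted proteins ran in both directions. Of 25 tested genes, 11 were higher in 3T3 and 6 higher in HEK, with a median log2 difference of -0.63, and with the length offset 15 and 3. CREB3L1, a membrane-bound transcription factor of collagen secretion, had no HEK UMI and 49, 41 and 37 in 3T3, and P4HA3, a collagen prolyl hydroxylase subunit, had none against 6, 13 and 8. SERPINH1, the collagen chaperone HSP47, had a log2 difference of -3.20, and CALR, a calcium-binding chaperone of the endoplasmic reticulum, had 850.0 ± 106.8 CPM in HEK and 1909 ± 68.0 in 3T3. PLOD1, a collagen lysyl hydroxylase, ran the other way, at 8, 20 and 15 UMIs in HEK and 11, 10 and 12 in 3T3, a log2 difference of 1.73 ± 0.38. CANX, another chaperone of the endoplasmic reticulum, was higher in HEK by total scaling (log2 difference 0.83) and lower with the length offset (-0.55).

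Most genes of the contractile actin cytoskeleton were higher in 3T3. Of 30 tested genes, 23 were higher in 3T3 and none in HEK, with a median log2 difference of -2.06 (-1.82 with 3 genes at their bound), and 25 were higher in 3T3 with the length offset. The list took 2.65 to 2.74% of joined UMIs in 3T3 wells and 0.680 to 0.737% in HEK wells. ACTA2, the smooth muscle actin of myofibroblasts, had 3, 1 and 1 UMIs in HEK and 351, 513 and 548 in 3T3, a log2 difference of -6.70 ± 0.32. TAGLN, TPM2 and MYL9, which bind or power actin filaments, had no UMI in HEK, and their 3T3 counts were 17, 13 and 20 for TAGLN, 23, 35 and 35 for TPM2 and 11, 10 and 7 for MYL9. FLNA and MYH9, a filament crosslinker and a non-muscle myosin, were abundant in both lines. FLNA stood at 2160 ± 240.4 CPM in HEK and 5439 ± 178.2 in 3T3, and MYH9 at 895.8 ± 134.5 and 2810 ± 51.02. Genes that did not pass the test were TPM3, CNN3, VCL, PDLIM5, TES, FHL2 and SORBS3.

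Targets of YAP, TEAD and SRF, transcription factors that respond to tension and cell spreading, followed the same direction. Of 16 tested genes, 12 were higher in 3T3 and none in HEK, with a median log2 difference of -2.14. CCN1, a secreted matricellular protein, had 4, 4 and 1 UMIs against 88, 129 and 173, a log2 difference of -4.01 ± 0.34. TEAD1 itself had 7, 17 and 22 against 84, 167 and 117. SRF, JUN, JUNB and AMOTL1 did not pass the test, with log2 differences of -0.37, -0.04, -0.50 and 0.32.

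Because most members of these 2 lists were higher in 3T3, their mouse promoters were searched for the binding letters of SRF and TEAD factors, in windows from 250 bases before to 50 bases after each start site (RefSeq, GRCm38.p6). A CArG box, the SRF site, which reads alike on both strands, stood in the window of 5 of the 26 actin genes with a promoter entry (19.2%), against 1.81% of 27025 RefSeq genes and 1.87% of the tested genes. The TEAD core GGAATG, on either strand (CATTCC on the other), stood in 6 of 11 YAP, TEAD and SRF targets (54.5%), where the CArG box stood in 1 (9.09%, SRF itself), against 16.6% of RefSeq genes and 13.8% of tested genes for the TEAD core. This core also stood in 10 of the 26 actin genes (38.5%). Over all genes called higher in 3T3 the shares were 2.76% for the CArG box and 17.7% for GGAATG, and over those higher in HEK 1.31% and 13.6%. VCL held both motifs, at separate places in its window. These shares are descriptions, and genes of these lists were in part first recognised through such sites. The windows of 30 bases around the CArG boxes are shown with the box in capitals, for 3 genes called higher in 3T3 and for VCL and FHL2 (at 1 of its start sites), which were not called:
Myl9, chr2:156775293-156775322, plus strand: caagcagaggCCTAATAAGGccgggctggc
Cnn2, chr10:79988534-79988563, plus strand: cgcttccacgCCTTATAAGGacatttgctc
Lima1, chr15:99820177-99820206, minus strand: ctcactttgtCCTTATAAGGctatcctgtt
Vcl, chr14:20929161-20929190, plus strand: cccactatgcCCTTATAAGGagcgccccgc
Fhl2, chr1:43163973-43164002, minus strand: gcgcgtgtgtCCTTATATGGtcaaatgact

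The same letters CCTTATAAGG stood before Cnn2 and Lima1, with log2 differences of -3.27 and -1.79, and before Vcl, with a log2 difference of 0.52 that did not pass the test. For the TEAD core, 4 windows are shown with the core in capitals, all before genes called higher in 3T3:
Ccn1, chr3:145650071-145650100, minus strand: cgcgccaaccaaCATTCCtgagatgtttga
Ankrd1, chr19:36119950-36119979, minus strand: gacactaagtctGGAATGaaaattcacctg
Ajuba, chr14:54577808-54577837, minus strand: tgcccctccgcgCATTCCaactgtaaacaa
Axl, chr7:25788949-25788978, minus strand: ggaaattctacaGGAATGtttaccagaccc

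All 6 tested genes of caveolae, the flask-shaped pits of the cell surface, were higher in 3T3, with a median log2 difference of -4.78 (-4.43 with 2 genes at their bound). CAV1, the coat protein, had 0, 0 and 2 UMIs in HEK and 38, 69 and 90 in 3T3, a ratio of 37.9 with a counting interval from 10.4 to 315.1. The cavins CAVIN2 and CAVIN3 had no UMI in HEK, and CAVIN1 had 1, 4 and 3 against 120, 164 and 184. EHD2, which sits at the neck of the pit, had 0, 3 and 1 against 74, 77 and 76.

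Adhesion receptors were mostly but not all higher in 3T3. Of 21 tested, 12 were higher in 3T3 and 4 in HEK, with a median log2 difference of -1.58. ITGB1, the beta chain shared by receptors of collagen and fibronectin, had 4, 6 and 6 UMIs against 107, 192 and 195, and CDH11, a mesenchymal cadherin, had 0 against 64, 61 and 80. The 4 genes higher in HEK were CDH2, the neuronal cadherin, the tetraspanins CD81 (not called with the length offset) and CD151, and BSG, a chaperone of lactate transporters. CD151 had 12, 12 and 15 UMIs against 9, 8 and 5, a log2 difference of 2.19 ± 0.42. The call of BSG (0.64) turned to the opposite direction with the length offset (-0.47).

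Both receptors of platelet-derived growth factor were higher in 3T3, PDGFRA with 0 UMIs in HEK and 13, 40 and 30 in 3T3, and PDGFRB with 1, 0 and 0 against 45, 41 and 39, a ratio of 48.1 with a counting interval from 8.47 to 1914. LRP1, an endocytic receptor of many ligands, had 11, 7 and 19 against 540, 698 and 691, a log2 difference of -4.31 ± 0.22. The Notch receptors NOTCH1, NOTCH2 and NOTCH3 were higher in HEK (NOTCH1 not with TMM, NOTCH2 not with TMM and the length offset together), NOTCH3 with 3, 8 and 13 UMIs against none in 3T3 and NOTCH2 at 1307 ± 337.2 CPM against 569.9 ± 77.3. IGF1R, the receptor of insulin-like growth factors, stood at 651.7 ± 203.4 and 627.1 ± 74.5 and did not pass the test (log2 difference -0.01, 95% interval -0.41 to 0.40). Over the list, 9 of 28 tested genes were higher in 3T3 and 5 in HEK, with a median log2 difference of -0.48.

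HOX genes encode the factors that give cells their position along the body axis. Of 39 joined HOX genes, 3 reached the filter, and HOXB9 and HOXD13 were higher in HEK, with 26, 80 and 44 UMIs and with 8, 19 and 18 UMIs against none in 3T3. Both passed the filter through HEK alone. When HOX genes were divided by paralog group, a split made after the values were seen, 15 of the 16 genes of groups 9 to 13 had a UMI in HEK and 1 had a UMI in 3T3. Without HOXB9 and HOXD13 the other 14 genes of these groups summed to 17, 55 and 49 UMIs in the HEK wells and 2, 0 and 1 in the 3T3 wells. The 23 genes of groups 1 to 8 summed to 16, 45 and 41 UMIs in HEK and 25, 42 and 21 in 3T3, which is 560.6 CPM in HEK and 186.1 in 3T3 over the 3 wells. The 14 genes stood at 665.0 and 6.3 CPM.

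Kidney development factors were thinly covered, with 9 of 29 above the filter, 5 higher in HEK and 2 in 3T3 (median log2 difference 0.95). SALL1, a factor of nephron progenitors, had 6, 17 and 13 UMIs against none, and FOXC1, a forkhead factor, had 11, 38 and 36 against 1, 2 and 7. SALL2, EYA3 and SIX4 were also higher in HEK, SIX4 near the threshold (log2 difference 0.95, adjusted p = 0.0469, edgeR) and not with TMM. OSR1 and FOXC2, both factors of intermediate or paraxial mesoderm, were higher in 3T3, OSR1 with no UMI in HEK and 21, 39 and 34 in 3T3.

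Of 10 tested epithelial genes, 5 were higher in HEK and 2 in 3T3, with a median log2 difference of 1.07. The desmosomal genes DSP, DSG2 and DSC3 had no UMI in 3T3 and, in the HEK wells, 17, 22 and 26 UMIs for DSP, 6, 17 and 26 for DSG2 and 8, 14 and 11 for DSC3. TJP1, a tight junction scaffold, was higher in HEK (14, 36 and 27 against 10, 22 and 24 UMIs). CTNNB1, beta-catenin, was higher in HEK by total scaling (log2 difference 1.25) and did not pass the test with the length offset (0.25). No UMI was counted in either line for 15 of the 32 joined genes of this list.

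Neuronal genes split evenly, 5 higher in each line of 11 tested, with a median log2 difference of -0.06 (-0.55 without STMN1, which was at 0 in 3T3). INA, a neuronal intermediate filament, UCHL1, a neuronal deubiquitinase, STMN1, which destabilizes microtubules, and DPYSL5 had UMIs in HEK and none in 3T3. UCHL1 had 6, 22 and 18 UMIs in HEK and STMN1 had 6, 21 and 15. DPYSL3, of the same family as DPYSL5, had the reverse pattern, with no UMI in HEK and 49, 77 and 70 in 3T3. MARCKS and MARCKSL1, membrane-bound partners of actin, also opposed each other, at log2 differences of -1.04 ± 0.23 and 1.59 ± 0.23. MAP1B, a microtubule-associated protein, differed by -0.06 when scaled by total and by 0.46 with the length offset.

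Among 8 tested genes known from fetal tissue, which are RNA-binding and chromatin genes and also DLK1, 2 were higher in HEK and 3, DLK1 among them, in 3T3, with a median log2 difference of -0.48. IGF2BP1, which protects fetal mRNAs, had 55, 150 and 127 UMIs in HEK and 21, 37 and 43 in 3T3, a log2 difference of 3.07 ± 0.20. HMGA2, a DNA-bending chromatin protein, had 4, 2 and 2 against 115, 206 and 188. Its paralog HMGA1 was higher in HEK, at a log2 difference of 0.99, and IGF2BP2 was higher in 3T3, at -2.02. LIN28B, a blocker of let-7 maturation, had 4, 5 and 6 UMIs in HEK and 0, 1 and 0 in 3T3, below the filter.

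**Figure D4:**
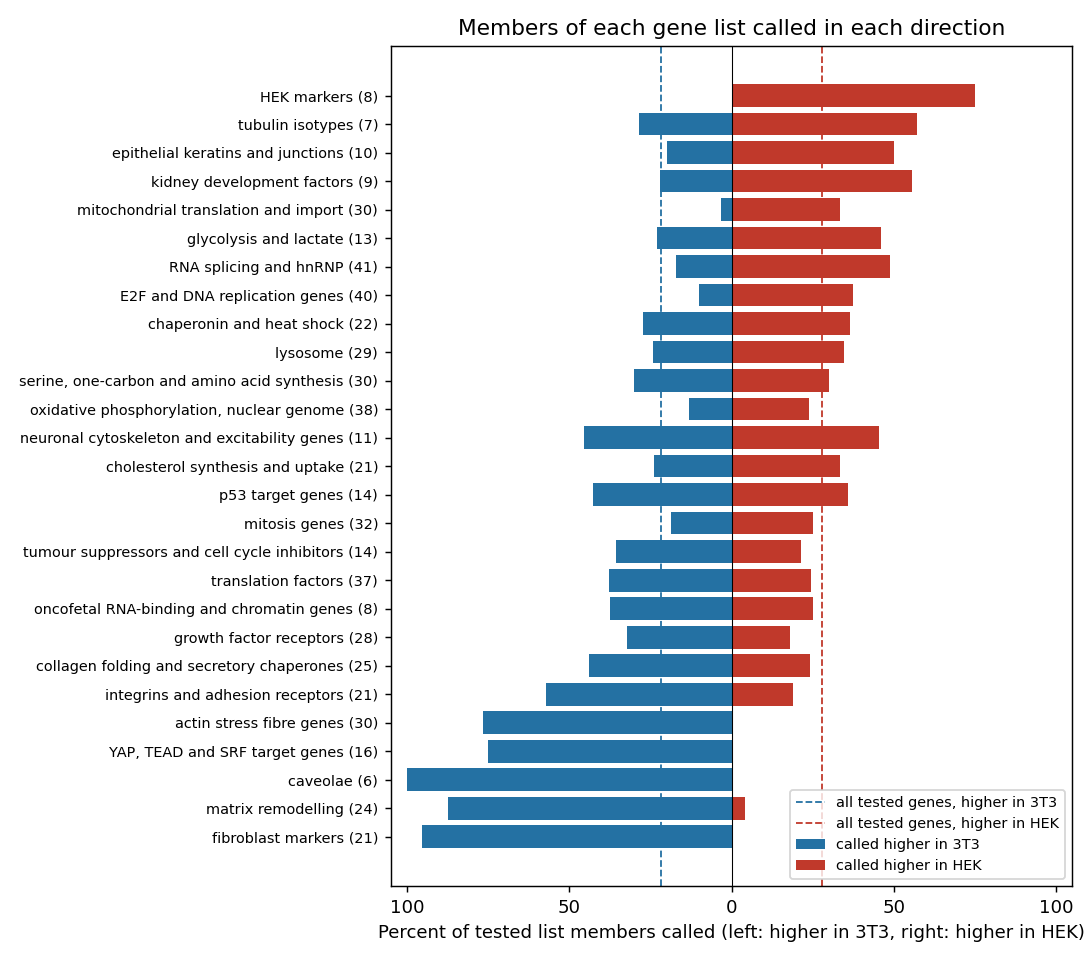
Percent of the tested members of each gene list (y axis, number tested in brackets, ordered by median log2 difference) that were called higher in 3T3 (blue, to the left) or in HEK (red, to the right), for lists of 5 or more tested genes. Dashed lines mark the shares over all tested genes, 21.8% and 27.8%, and the lowest 5 lists lie far beyond the 3T3 line.

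Both lines divide in culture. Among E2F targets and replication genes, 15 of 40 were higher in HEK and 4 in 3T3, a median log2 difference of 0.53. With TMM 11 and 7 were called (median 0.20), and with the length offset 17 and 5. E2F2, an activator of S phase, had 5, 9 and 12 UMIs against 1, 0 and 2, a ratio of 22.5 (6.90 to 116.3). The replicative helicase subunits did not run together: MCM4 was higher in HEK (log2 difference 0.96 ± 0.23) but stood at 0.18 with the length offset, MCM2 was higher in 3T3 (-0.85, not called with the length offset) and MCM3 did not pass the test (-0.19). POLA2, the accessory subunit of DNA polymerase alpha, had 2, 1 and 0 UMIs against 18, 21 and 18, a ratio of 7.31 with a counting interval from 2.38 to 36.5. DNMT1, the maintenance DNA methyltransferase, stood at 493.4 ± 171.4 and 441.1 ± 69.6 CPM and did not pass the test, and with the length offset it was higher in 3T3 (-0.66).

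Among mitosis genes, 8 of 32 were higher in HEK (25%) and 6 in 3T3 (18.8%), against 27.8% and 21.8% of all tested genes. The median log2 difference was -0.21, and with TMM the split was 3 and 13. MKI67, the proliferation marker, was at 1322 ± 163.6 CPM in HEK and 903.1 ± 120.6 in 3T3 (log2 difference 0.52, not called with TMM or the length offset). TOP2A, which untangles chromosomes, was at 458.9 ± 109.5 and 755.4 ± 238.9 (log2 difference -0.71, not called with the length offset). BUB1, a spindle checkpoint kinase, was higher in HEK in all 4 fits, and CENPA, the centromeric histone, had 0, 0 and 1 UMIs in HEK and 16, 30 and 33 in 3T3, a ratio of 30.4 with a counting interval from 5.30 to 1215.

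CDKN2A, the gene of the p16 and ARF tumour suppressors, had 11, 36 and 22 UMIs in HEK and none in any 3T3 well, at least 59.8-fold higher in HEK. Over the 14 tested genes of a list that mixes tumour suppressors and cell cycle inhibitors with cyclins and their kinases, 3 were higher in HEK and 5 in 3T3, with a median log2 difference of -0.29. The drivers CCND1, CCND2 and CDK4 were among the 5. RB1 and NF2, 2 further tumour suppressors, were higher in HEK, NF2 with 9, 50 and 42 UMIs against 11, 21 and 16. The D-type cyclins CCND1 and CCND2, which drive entry into the cycle, were higher in 3T3, CCND1 with 0, 5 and 2 UMIs against 49, 93 and 85 and CCND2 with 3, 10 and 10 against 117, 153 and 141. Of 14 tested p53 targets, 5 were higher in HEK and 6 in 3T3, with a median log2 difference of -0.14. SESN2, a stress-induced inhibitor of growth signalling, had 18, 51 and 12 UMIs in HEK and 8, 7 and 14 in 3T3, so that HEK well 3 was far below the other 2 HEK wells per UMI. MDM2, the ubiquitin ligase of p53, was higher in HEK (2.11), whereas CCNG1 was higher in 3T3 with 3, 3 and 5 UMIs against 58, 53 and 70. CDKN1A, which encodes p21, did not pass the test (-0.50). The gene of p53 itself has a different symbol in each species and was not joined.

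Glycolytic genes were higher in HEK in 6 of 13 cases and in 3T3 in 3, with a median log2 difference of 0.70. Without GAPDH and PGK1, left out after their values were seen because they were near 0 in 3T3, 4 of 11 were higher in HEK and 3 in 3T3 (median 0.60), nearer the shares of all tested genes. The list took 0.540 to 0.673% of joined UMIs in HEK and 0.231 to 0.296% in 3T3. ENO1, enolase, had 66, 159 and 149 UMIs in HEK and 20, 50 and 39 in 3T3, a log2 difference of 3.15 ± 0.20. PKM, pyruvate kinase, stood at 1470 ± 176.2 against 666.4 ± 34.2 CPM, and SLC16A1, the lactate transporter, at 633.8 ± 196.2 against 189.5 ± 43.6. LDHA, lactate dehydrogenase, HK2, hexokinase (not called with the length offset), and SLC2A1, the glucose transporter, were higher in 3T3, LDHA with 5, 20 and 13 UMIs against 55, 117 and 89. GAPDH had 14, 42 and 36 UMIs against 2, 6 and 4, and PGK1 had 5, 14 and 17 against 2, 0 and 0.

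Of 38 tested nuclear genes of oxidative phosphorylation, 9 were higher in HEK and 5 in 3T3, with a median log2 difference of -0.03. With the length offset 10 and 13 were called (median -0.45), and with TMM and the offset 7 and 14 (-0.69). Without COX6A1, NDUFV2, CYCS and NDUFB4, each at 0 in 1 line, 7 of 34 were higher in HEK and 3 in 3T3. The share of joined UMIs over the whole list was 0.338 to 0.353% in HEK and 0.273 to 0.282% in 3T3. Of 30 tested genes of mitochondrial translation and import, 10 were higher in HEK, a share near that of all tested genes, and 1 in 3T3, with a median of 0.76 (0.42 with TMM). With the length offset 13 and 5 were called, and with TMM and the offset 12 and 5. Without TIMM23, at 0 in 3T3, 9 of 29 and 1 were called (median 0.59). TUFM, the mitochondrial elongation factor, differed by a log2 value of 4.08 and MRPL37, of the mitochondrial ribosome, had 14, 49 and 34 UMIs against 13, 29 and 20. MRPL12 was the 1 gene of this list called higher in 3T3 by total scaling, with 0, 1 and 0 UMIs against 13, 18 and 11, a ratio of 16.2 (2.75 to 653.2). LRPPRC and HSPA9, which stabilize mitochondrial mRNA and import proteins, did not pass the test when scaled by total (0.59 and 0.33) and were higher in 3T3 with the length offset (-1.25 and -0.67).

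Amino acid metabolism was divided gene by gene, 9 of 30 higher in each line (median log2 difference 0.10). That is 30% each way, against 27.8% of all tested genes for HEK and 21.8% for 3T3. ASNS, asparagine synthetase, had 1, 0 and 0 UMIs in HEK and 50, 73 and 84 in 3T3, a ratio of 79.6 with a counting interval from 14.1 to 3160. Opposite to it, GLUL, glutamine synthetase, had 15, 19 and 18 against 1, 2 and 6, a log2 difference of 3.85 ± 0.46. Within the serine pathway, PHGDH, its entry enzyme, was higher in HEK (1.61) but stood at -0.09 with the length offset, and PSAT1 and SHMT2, later steps, were higher in 3T3 (-2.22 and -1.71). ATF4, the factor that induces many of these genes, did not differ beyond its error (0.12 ± 0.21, adjusted p = 0.654, edgeR). In lipid synthesis, 7 of 21 genes were higher in HEK (33.3%) and 5 in 3T3 (23.8%), beside the same 27.8% and 21.8%. The median log2 difference was -0.13. With TMM 6 and 7 were called (median -0.47), and with the length offset 8 and 3. FASN, fatty acid synthase, stood at 2718 ± 175.8 and 1625 ± 148.7 CPM, DHCR7, the last enzyme of cholesterol synthesis, had 17, 24 and 15 UMIs against 6, 4 and 7, and HSD17B7, an earlier sterol enzyme, had none against 8, 17 and 10.

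Lysosomal genes were split, 10 of 29 higher in HEK (34.5%) and 7 in 3T3 (24.1%), against 27.8% and 21.8% of all tested genes. The median log2 difference was 0.15, equal to that of all tested genes. The larger side turned with the length offset, when 8 and 10 were called. NEU1, which cleaves sialic acid, was higher in HEK with 3, 5 and 10 UMIs against 1, 0 and 1, a ratio of 23.4 (5.60 to 207.9). The cathepsins CTSB, CTSD and CTSL, which digest protein, were higher in 3T3, with log2 differences of -1.35, -1.13 and -2.95, and CTSA, with 8, 6 and 6 UMIs against 19, 17 and 23, did not pass the test. LAMP1, a lysosomal membrane protein, had 4, 11 and 13 against 49, 87 and 83.

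RNA splicing genes leaned to HEK. Of 41 tested, 20 were higher in HEK and 7 in 3T3, with a median log2 difference of 0.69 (0.35 with TMM, when 16 and 8 were called), and the list took 2.56 to 2.65% of joined UMIs in HEK and 1.44 to 1.60% in 3T3. SRRM2, a scaffold of nuclear speckles and the most abundant joined gene in HEK, had 215, 391 and 411 UMIs there and 284, 444 and 426 in 3T3, a log2 difference of 1.22 ± 0.15. PRPF8, the core of the spliceosome, followed with 145, 338 and 258 against 209, 325 and 265. HNRNPL, which represses or activates exons, ran against the list with 6, 14 and 4 UMIs in HEK and 110, 187 and 154 in 3T3.

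The cytosolic HSP90 genes ran in opposite directions. HSP90AA1, the inducible cytosolic HSP90, had 47, 123 and 85 UMIs in HEK and 15, 26 and 23 in 3T3, and HSP90AB1, the constitutive form, had 54, 169 and 142 in HEK and 446, 716 and 665 in 3T3. Their log2 differences were 3.35 ± 0.22 and -0.98 ± 0.16. HSPA8, the constitutive HSP70, was at 2766 ± 202.1 CPM in HEK and 783.6 ± 78.9 in 3T3. Over the list of chaperonin and heat shock genes, 8 of 22 were higher in HEK (36.4%) and 6 in 3T3 (27.3%), with a median log2 difference of 0.48. With TMM 6 and 7 were called (median 0.14), and with the length offset 11 and 6. Of 7 tested tubulins, TUBA1C, TUBA1B, TUBB4B and TUBG1 were higher in HEK and TUBB6 and TUBA4A higher in 3T3 (median 1.14), and TUBA1B and TUBA4A were not called with the length offset.

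The 3 genes that the naming rule picked for a close match were EEF2, EIF4G1 and TTYH3, a chloride channel gene. Their 95% interval lay within 0.5 of 0 on the log2 scale both by total scaling and with the length offset. The rule asks for a narrow interval, which favours abundant genes, so it does not rank genes by the size of the difference. TMM was not part of it. EEF2, the elongation factor that moves the ribosome, stood at 4676 ± 450.3 CPM in HEK and 4283 ± 375.3 in 3T3, and EIF4G1, the initiation scaffold, at 2126 ± 35.3 and 1901 ± 65.4. TTYH3 stood at 561.4 ± 145.0 and 565.1 ± 53.5. EIF4G2 and EIF4G3, paralogs of EIF4G1, were higher in HEK, by 0.75 ± 0.17 and 1.46 ± 0.24. In contrast, EIF3C, EIF4A1 and EEF1G, factors that every growing cell uses, had no UMI in HEK, and EIF3C had 50, 90 and 85 in 3T3. EEF1A1, a core elongation factor, had 2, 1 and 1 UMIs in HEK against 129, 228 and 184 in 3T3. Over the list, 14 of 37 tested translation factors were higher in 3T3 and 9 in HEK, with a median log2 difference of -0.34, and with TMM 18 and 5. Without EIF3C, EIF4A1, EEF1G and EEF1A1, left out after their values were seen, 10 of 33 were higher in 3T3 and 9 in HEK and the median turned to 0.13.

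Such gaps in genes of every growing cell appeared in both lines. COX6A1, NDUFV2 and RPS26 had no UMI in HEK, and CYCS, NDUFB4, TIMM23 and STMN1 had none in 3T3. Because reads that match several places were discarded, a gene with a near-identical copy elsewhere in its own genome can be undercounted in that species alone, and this holds for every gene with such a copy. The human table lists 35 pseudogenes named after RPS26 and 13 after EIF4A1, but also 41 after CYCS, which had 4, 10 and 7 UMIs in HEK. It lists 4 after ASNS and 2 each after HSD17B7, STMN1 and PGK1. A human pseudogene named after the gene was listed for 14.5% of the 283 genes at 0 in HEK and for 17.7% of the 5643 genes with UMIs in both lines. Copies in the mouse genome were not counted, and the part of copies in these values was not tested. The ribosomal protein genes, which also have copies, summed to 1.27 to 1.33% of joined UMIs in HEK and 0.595 to 0.665% in 3T3.

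Of the tested genes, 283 had no UMI in HEK and 104 had none in 3T3. A sum of 0 allows up to 16.5 CPM in HEK and 6.34 in 3T3 (3 UMIs over the 3 libraries, counting error only). In the deeper sequencing run of well 2, 25 of the 283 genes had a UMI in HEK, at most 2 each, and 7 of the 104 had one in 3T3. The sign of the difference in that run was the same for 2966 of the 2990 called genes, or 99.2%, although that run reads the same cDNA again and is no further replicate. Reads with the HEK barcode were mapped to the human genome alone and reads with the 3T3 barcode to the mouse genome alone, so RNA of the other species with the wrong barcode would be counted where the sequence is shared. The part of this in single genes was not tested. COL1A1 and ACTA2, abundant in 3T3, had 9 and 5 UMIs over the 3 HEK wells together, and DLK1 and FBLN2 had 0.

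**Figure D5:**
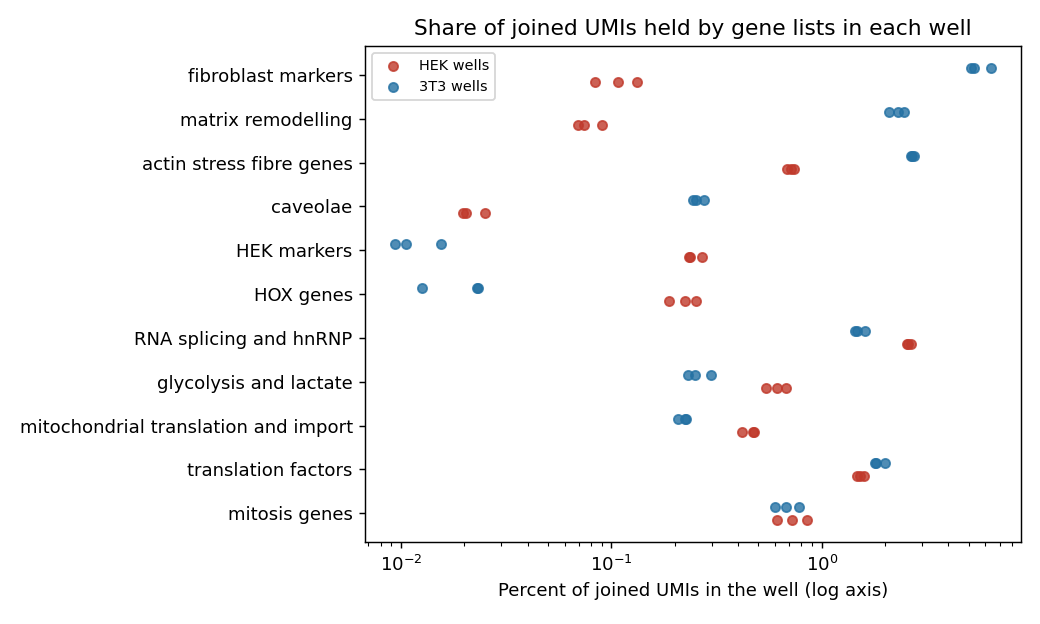
Share of joined UMIs (x axis, percent, log axis) taken by 11 gene lists (y axis) in each of the 3 HEK wells (red points) and 3 3T3 wells (blue points). The wells of the 2 lines stand apart in every list shown but the mitosis genes, where they overlap.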

How the data were processed

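The authors mapped the reads with STAR 2.7.9a to GRCh38 (GENCODE v38) or GRCm39 (GENCODE vM27), discarded reads that matched several places, assigned the rest to genes and collapsed UMIs per gene with UMI-tools 1.1.1. Genes were assigned with featureCounts at its default settings, which count exons without regard to strand, so overlapping and antisense genes cannot be told apart. The deposited tables hold UMI counts per gene, raw and not normalized, and 2 mouse rRNA genes were removed by the authors. Each well's number pairs a HEK with a 3T3 library by design, since both lines shared the well (correlation of residuals of same-well libraries 0.0179, 0.0274 and -0.000989).

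Counts were tested with edgeR 4.0.16 (limma 3.58.1, R 4.3.3) by its quasi-likelihood test, with the total of joined genes as library size and Benjamini-Hochberg adjustment over all 6030 genes at 0.05, and alternatives used DESeq2 1.42.0. The common biological coefficient of variation was 13.01%. A floor of 3 UMIs over the 3 libraries of a line was used for genes at 0, and counting intervals cover counting error only. The scripts were tested on simulated data. Genes were named by rule: the 10 steepest each way called with and without the length offset, without overlap of wells and with at least 60 UMIs in the higher line; in each list the 3 highest and the steepest called members; the level genes; and list members at 0 in 1 line. Members and lists were chosen with earlier results of these data known. Retinal libraries were not used here. A few named genes are not reported here.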

Additional observations from a re-analysis of the deposited data

How the results depend on the processing

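Of 3490 values for 165 named genes under the alternatives, 3370 kept their direction and side of the threshold, 84 lost and 19 gained a call and 17 reversed. With 60 or more UMIs per gene 1594 genes were called (743 higher in HEK, 851 in 3T3), and with all libraries thinned to the smallest 1281 (731 and 550); both test or hold fewer counts. DESeq2, with its own size factors and not the total of joined genes, called 926 genes higher in HEK and 1220 in 3T3. With factors of that type (RLE) edgeR called 1244 higher in HEK and 1704 in 3T3. The cause was not tested. Leaving out 1 library or well gave 1896 to 2721 calls, 958 to 1543 higher in HEK and 938 to 1232 in 3T3. Without well 2 the total was 1896 and 958 were higher in HEK, without well 3 they were 1964 and 1024, and without HEK well 2 alone 1108 were higher in HEK. With the well as replicate block 2863 genes were called (1599 higher in HEK, 1264 in 3T3), and no named gene changed its call. Lists without housekeeping genes at or near 0 in 1 line were counted after seeing the data.

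With the length offset, the length offset with the block, and the length offset with TMM (chosen after seeing the data), the log2 differences reversed to -0.55, -0.55 and -0.80 for CANX, to -0.47, -0.48 and -0.72 for BSG, to -0.66, -0.69 and -0.91 for DNMT1, to -0.67, -0.70 and -0.92 for HSPA9 and to -1.25, -1.27 and -1.50 for LRPPRC. MAP1B reversed to 0.46 with the offset and MCM4 to -0.068 with the offset and TMM. The differences in gene length enter these values by construction. The shallowest HEK library, with 35532 joined UMIs, limits what can be seen of low genes in HEK.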
